A study of Arabidopsis with 6 samples.

Results

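The genes described here encode the cytosolic large-subunit (60S) ribosomal proteins L21 to L39 of Arabidopsis thaliana, including L23a, L27a, L35a, L36a and L37a and leaving out the ubiquitin fusion L40. They were taken from a fixed list of 59 loci for 22 proteins. A locus counted as measured where the probe table paired a probe set with it alone. This held for 34 of the 59 loci, which encode 14 of the 22 proteins. Another 12 loci had only probe sets shared between 2 paralogs, and 13 had no probe set named in the table. The proteins L21, L23, L23a, L24, L32, L36a, L38 and L39 therefore had no measured member.

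Transcript levels were measured on Affymetrix ATH1 arrays, 3 for wild type (Col-3) and 3 for apum23 in the same cultivar. RNA came from the aerial parts of plants kept on soil for 21 days at 22 °C with 8 h light and 16 h dark. The design text names 1 mutant allele, apum23-1, while the descriptions of apum23 replicates 2 and 3 read apum23-2 and apum23-3, so replicate 1 was also compared alone with wild type. The pooling of plants into samples and the kind of lesion in the alleles are not given in the labels.

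APUM23 is a nucleolar Pumilio-family RNA-binding protein that acts in the processing of ribosomal RNA precursors. A ribosome holds 1 copy of most of its proteins, and in Arabidopsis most are encoded by small families of near-identical genes, called paralogs here. L26, L31 and L35 sit around the exit of the tunnel through which the new protein chain leaves the large subunit, with L23a and L39. L30 lies at the face that meets the small subunit, as do L23 and L24. In yeast, L35 and L37 join the large subunit before the internal spacer between the 5.8S and 25S RNAs is removed.

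Levels are log2 probe set intensities after quantile normalization, so a difference of 1 is a 2-fold change. A change is apum23 minus wild type, and a gene was called where limma's Benjamini-Hochberg adjusted p over all 22746 probe sets was under 0.05. The arrays correlated at 0.9935 to 0.9964 within a genotype and at 0.9834 to 0.9869 between genotypes. As deposited, the array medians ran from 5.34 to 6.10. Wild-type replicate 1 had the lowest median, and its spiked-in hybridization controls averaged 5.36 against 9.42 to 9.74 on the other 5 arrays. Of 2 measured green-tissue markers, RCA (AT2G39730) was at 13.71 ± 0.06 in wild type and 13.78 ± 0.07 in the mutant, and PRK (AT1G32060) at 12.71 ± 0.05 and 12.28 ± 0.19 (limma adjusted p = 0.0172, and 0.403 on the deposited values, where PRK was not called). In wild type the root hair genes EXPA7 and EXPA18 were at 3.74 ± 0.11 and 4.06 ± 0.10 (SD, n = 3), near the arrays' lower quartile of 3.6. The root gene PYK10 (AT3G09260) was at 8.02 ± 0.24 in wild type and 7.99 ± 0.53 in apum23. The table used for gene names has no probe set for APUM23, so its own level is not analysed here.

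Transcripts for these proteins were higher in apum23 as a group. Among the 34 measured genes, limma called 28 higher and 6 were not called, where 9.69% of all probe sets were called higher and 10% lower. It called 0 lower, and at an unadjusted p under 0.05 there were also 0 lower and 30 higher. The median change was 0.69, against -0.02 over all probe sets, and 33 of the 34 changes were above 0. The changes ran from -0.01 to 1.38, with quartiles at 0.37 and 0.86. In 30 of the 34 genes every apum23 array lay above every wild-type array, which was so for 15.9% of all probe sets. Only 4 genes rose 2-fold or more, where 1.25% of all probe sets did so: AT2G32220 (L27), AT1G15250 (L37), AT2G39390 (L35) and AT5G67510 (L26).

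The genes were compared on each mutant array separately. Against the wild-type mean, the median difference of the 34 genes was 0.60 on apum23 replicate 1 and 0.69 on each of replicates 2 and 3. With replicate 1 as the only mutant array, 18 genes were called higher, where 4.11% of all probe sets were. That fit takes its spread from wild type only and assumes the same spread for the mutant, so its calls say little about replicate 1. On the deposited values without quantile normalization the median was 0.74, against 0.08 over all probe sets. There 19 genes were called higher and 0 lower, where 5.31% of all probe sets were called higher. All 19 were among the 28. In these bulk samples a higher level per cell and a larger share of cells rich in ribosomal protein transcripts cannot be told apart.

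**Figure D1:**
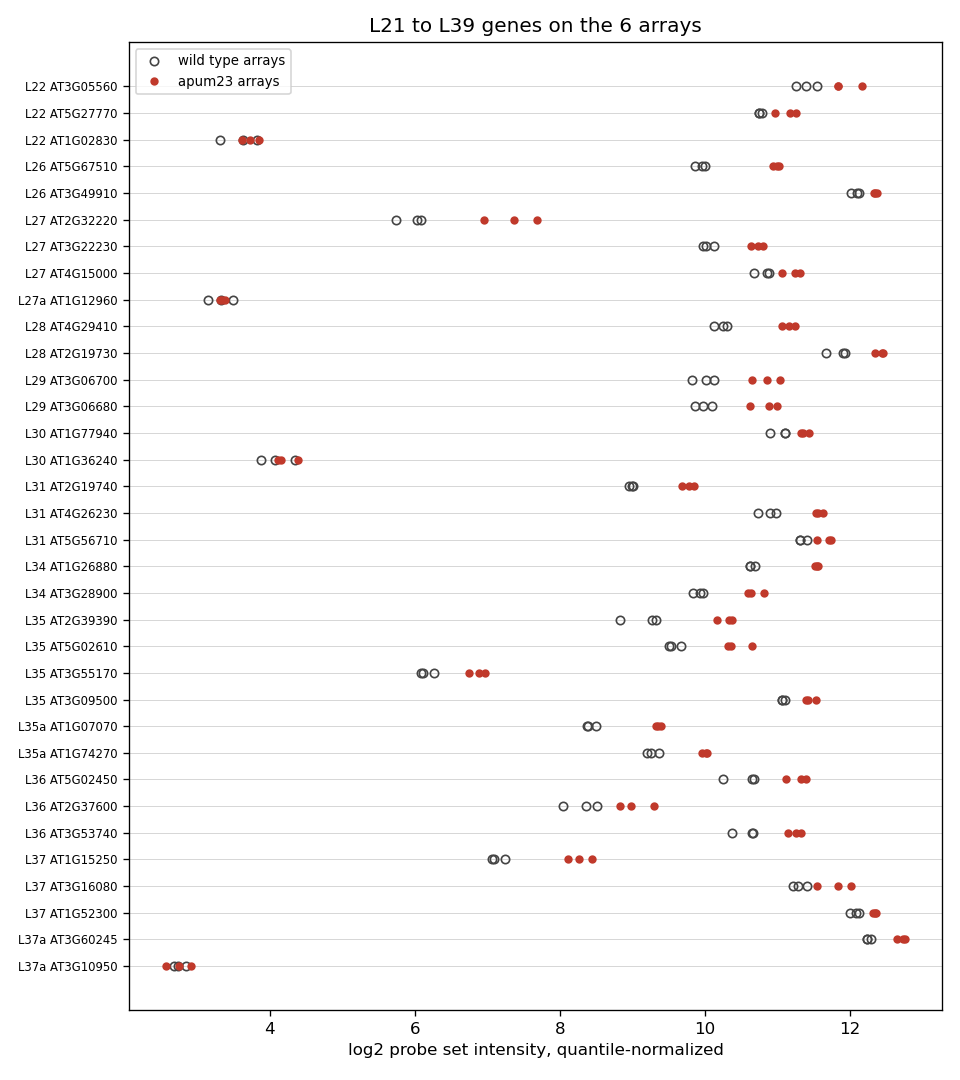
Log2 probe set intensity of each of the 34 measured genes (rows, by protein and locus) on the 3 wild-type arrays (open circles) and the 3 apum23 arrays (filled circles), quantile-normalized. The groups do not overlap in 30 genes, and the 4 that overlap (AT1G02830, AT1G12960, AT1G36240 and AT3G10950) lie at the dim end of the axis.

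Around the tunnel exit, 8 of 9 measured genes were called higher, beside 9.69% of all probe sets, and the median change of the 9 was 0.72. The L26 genes differed most plainly. AT5G67510 stood at 10.00, 9.87 and 9.96 in wild type and at 10.99, 11.02 and 10.94 in apum23, a change of 1.04 ± 0.09 (SE; limma adjusted p = 3.1e-05). AT3G49910 stood at 12.02, 12.10 and 12.12 in wild type and at 12.35, 12.33 and 12.38 in apum23, a change of 0.27 ± 0.09 (limma adjusted p = 0.0599). In both genes all mutant arrays were above all wild-type arrays, but only AT5G67510 was called. As deposited, the AT3G49910 groups overlapped, with wild type up to 12.27 and the mutant from 12.21. L26 is the ribosomal protein to which the modifier UFM1 is attached in human cells.

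All 4 L35 genes rose. AT2G39390 changed most, from 8.83, 9.33 and 9.27 in wild type to 10.17, 10.33 and 10.37 in apum23 (change 1.15 ± 0.13, SE; limma adjusted p = 0.000175). Wild-type replicate 1 was the lowest of its arrays, and the mutant arrays lay close together. AT5G02610 rose by 0.88 and AT3G55170 by 0.72. AT3G09500 moved least, from 11.11, 11.06 and 11.06 to 11.40, 11.53 and 11.42 (change 0.37 ± 0.09; limma adjusted p = 0.0156). It was not called on the deposited values (0.42, limma adjusted p = 0.372) or with median centring (0.25, limma adjusted p = 0.278). Nor was it called when wild-type replicate 2 or either of apum23 replicates 2 and 3 was left out.

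The 3 L31 genes rose as well. AT2G19740 went from 8.96, 8.99 and 9.01 to 9.78, 9.68 and 9.85 (change 0.78 ± 0.09, SE; limma adjusted p = 0.000217), and AT4G26230 rose by 0.70. AT5G56710 went from 11.31, 11.41 and 11.31 to 11.54, 11.71 and 11.74 (change 0.32 ± 0.10; limma adjusted p = 0.0407). The groups did not overlap in any of the 3, though those of AT5G56710 did on the deposited values. The call for AT5G56710 was lost on the deposited values, with median centring (limma adjusted p = 0.341) and with the replicate number as a block (limma adjusted p = 0.0701). It was also lost in 5 of the 6 fits without 1 array (limma adjusted p from 0.0726 to 0.144), the exception being that without apum23 replicate 1.

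At the subunit interface, only 2 L30 genes were measured. In budding yeast L30 also binds its own transcript and blocks its splicing. AT1G77940 stood at 11.11, 11.10 and 10.90 in wild type and at 11.33, 11.43 and 11.35 in apum23, a change of 0.33 ± 0.10 (SE; limma adjusted p = 0.0385). The groups did not overlap, yet the call was lost on the deposited values (limma adjusted p = 0.485) and with median centring (limma adjusted p = 0.423). It was also lost with the replicate block (limma adjusted p = 0.0665) and without any 1 of the 6 arrays (limma adjusted p from 0.0502 to 0.119). AT1G36240 was dim. Its wild-type arrays read 3.88, 4.35 and 4.08 and its apum23 arrays 4.16, 4.12 and 4.39, and the groups overlapped (change 0.12, limma adjusted p = 0.612).

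Elsewhere in the subunit 19 of 23 measured genes were called higher, beside 9.69% of all probe sets, and the median change of the 23 was 0.69. L27 had the largest change of all. AT2G32220 stood at 5.74, 6.03 and 6.09 in wild type and at 7.68, 6.95 and 7.37 in apum23, a change of 1.38 ± 0.17 (SE; limma adjusted p = 0.000213). All 3 mutant arrays were high, with replicate 1 the highest and replicate 2 the lowest. AT3G22230 rose by 0.69. AT4G15000 went from 10.88, 10.86 and 10.68 to 11.24, 11.07 and 11.31 (change 0.40 ± 0.11, limma adjusted p = 0.02). Its call was lost on the deposited values (limma adjusted p = 0.342) and with median centring (limma adjusted p = 0.22). It was also lost when wild-type replicate 3 or either of apum23 replicates 1 and 3 was left out.

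L37, a zinc-binding protein that contacts the 5.8S RNA, also had a wide span. AT1G15250 went from 7.24, 7.09 and 7.06 to 8.12, 8.45 and 8.26 (change 1.15 ± 0.11, SE; limma adjusted p = 5.06e-05). AT3G16080 went from 11.22, 11.29 and 11.41 to 12.02, 11.55 and 11.83 (change 0.49 ± 0.13; limma adjusted p = 0.0172). AT1G52300 went from 12.00, 12.12 and 12.09 to 12.32, 12.34 and 12.36 (change 0.27 ± 0.09; limma adjusted p = 0.0631). The groups did not overlap in any of these genes, but only the first was called on the deposited values, where the AT1G52300 groups overlapped. The call for AT3G16080 also went with median centring (limma adjusted p = 0.0779). It went too when any 1 of wild-type replicates 1 and 2 and apum23 replicates 1 and 3 was left out. Both AT1G52300 and the L26 gene AT3G49910 lie above 99.4% of all probe sets, and both were called once the dimmest 40% of probe sets were left out or the variance was modelled with a trend.

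Members of other proteins moved by similar amounts. The L29 genes AT3G06700 and AT3G06680 changed by 0.86 and 0.85. They lie on chromosome 3 with 1 protein-coding gene between them, and their probe sets differed by no more than 0.15 on any array. L29 is a small basic protein that budding yeast can live without. The 3 L36 genes rose by 0.75 (AT5G02450), 0.73 (AT2G37600) and 0.68 (AT3G53740). As deposited, the AT2G37600 groups overlapped, with wild type up to 8.75 and the mutant from 8.70. The L34 genes rose by 0.90 (AT1G26880) and 0.77 (AT3G28900).

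The measured L35a genes, of a protein that is mutated in some human patients with Diamond-Blackfan anaemia, both rose. AT1G07070 went from 8.50, 8.39 and 8.37 to 9.32, 9.39 and 9.35 (change 0.93 ± 0.09, SE; limma adjusted p = 6.51e-05), and AT1G74270 rose by 0.73. Transcripts of both genes for L28, a protein that budding yeast lacks, rose. AT4G29410 went from 10.25, 10.31 and 10.12 to 11.06, 11.16 and 11.24 (change 0.92 ± 0.10; limma adjusted p = 0.000109). AT2G19730 rose by 0.58, and on the deposited values it just missed the call (0.66, limma adjusted p = 0.0502). This gene is the direct neighbour on chromosome 2 of the L31 gene AT2G19740, which rose by 0.78.

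L22 and L37a each paired risen genes with a dim one. The L22 genes AT3G05560 and AT5G27770 rose by 0.55 and 0.37. Neither was called on the deposited values (limma adjusted p = 0.0685 and 0.379) or with median centring (limma adjusted p = 0.0543 and 0.224). AT5G27770 also lost its call when any 1 of wild-type replicates 1 and 2 and apum23 replicates 1 and 3 was left out. The third L22 gene, AT1G02830, stood at 3.83, 3.63 and 3.31 in wild type and at 3.73, 3.85 and 3.62 in apum23 (limma adjusted p = 0.525).

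The L37a gene AT3G60245 went from 12.23, 12.24 and 12.29 to 12.76, 12.65 and 12.73 (change 0.46 ± 0.09, SE, limma adjusted p = 0.00485). The limma adjusted p was 0.213 on the deposited values and 0.122 with median centring, so its call was lost in both. Its paralog AT3G10950 stood at 2.85, 2.73 and 2.68 in wild type and at 2.57, 2.91 and 2.75 in apum23 (limma adjusted p = 0.955). AT1G12960 was the only measured L27a gene, with wild-type arrays at 3.33, 3.49 and 3.15 and apum23 arrays at 3.39, 3.31 and 3.34 (limma adjusted p = 0.924). These dim probe sets, with wild-type means under 3.6 like that of AT1G02830, are close to the background, where a change of the transcript can go unseen. The direction of AT3G10950 and of AT1G12960 turned with the scaling and with single arrays left out.

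**Figure D2:**
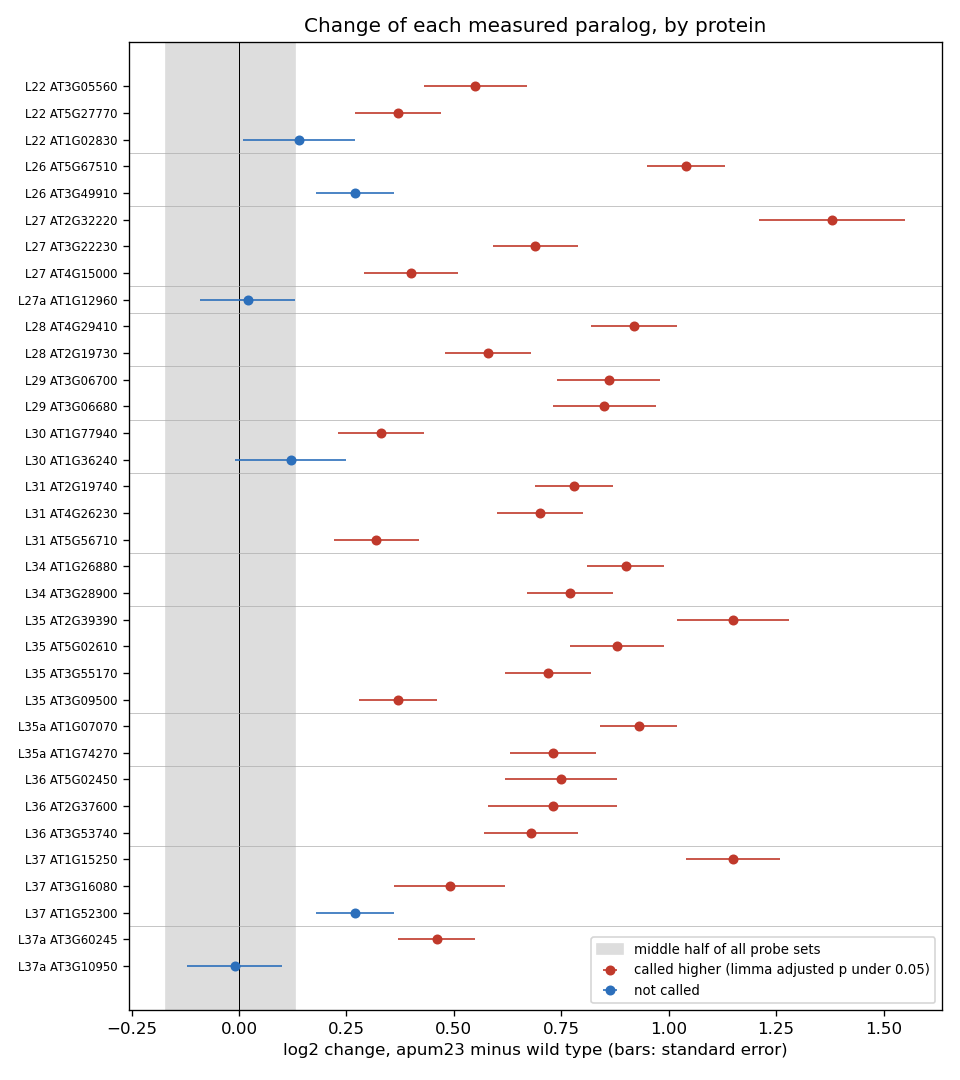
Log2 change (apum23 minus wild type, with standard error) of each measured gene, grouped by protein with lines between proteins. The shaded band spans the quartiles of all probe sets, -0.17 and 0.13. Of the 34 genes 28 were called higher, and the 6 not called have changes of 0.27 or less.

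Comparing paralogs of 1 protein, no protein had genes called in opposite directions. Of the 13 proteins with at least 2 measured genes, all measured genes were called higher in 8 (L27, L28, L29, L31, L34, L35, L35a and L36). In 5 (L22, L26, L30, L37 and L37a) some were called higher and 1 was not called. The uncalled genes of L22, L30 and L37a were dim, with wild-type means of 3.59, 4.10 and 2.76. Those of L26 and L37 each changed by 0.27, without overlap of the groups. The span between the largest and smallest change within a protein, dim genes included, had a median of 0.40. It was widest for L27 (0.98), L37 (0.88), L26 (0.77) and L35 (0.77) and narrowest for L29 (0.01), L36 (0.07) and L34 (0.13).

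Whether 2 paralogs changed unequally was read from the difference between their log2 values within each array, in which an offset of the whole array cancels. Such a difference also holds the probes' own brightness, so only its shift between genotypes is compared. In each pair the gene with the smaller change was subtracted, so the sign of a shift is set by this order and is no result. The L26 difference, AT5G67510 minus AT3G49910, was -2.02, -2.23 and -2.16 in wild type against -1.36, -1.31 and -1.44 in the mutant, a shift of 0.77 ± 0.07 (SE). For L37, AT1G15250 minus AT1G52300 was -4.76, -5.04 and -5.02 against -4.20, -3.89 and -4.09, a shift of 0.88 ± 0.13. Neither pair overlapped between genotypes.

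For L27, AT2G32220 minus AT4G15000 was -5.14, -4.83 and -4.59 in wild type against -3.56, -4.12 and -3.94 in apum23, a shift of 0.98 ± 0.23 (SE). For L35, AT2G39390 minus AT3G09500 was -2.28, -1.73 and -1.80 against -1.23, -1.20 and -1.05, a shift of 0.77 ± 0.18. These pairs did not overlap either, though wild-type replicate 1 was the lowest array in both. The L28 shift was smaller and tight, at 0.34 ± 0.04, with AT4G29410 the gene that changed more.

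In all, 28 pairs within 13 proteins were compared. The difference did not overlap between genotypes in 16 pairs and overlapped in 12. The share of 57.1% stood beside 51.7% of 29 pairs among the proteins L3 to L19 and 56.4% of 39 pairs in the small subunit. The difference between these shares was not tested. No share was computed for pairs of other genes, so the 57.1% has no baseline over all probe sets. On the deposited values 14 pairs did not overlap, all of them among the 16. Pairs with a dim gene say little about unequal changes. The L37a pair is among the 16, but AT3G10950 was close to the background (change -0.01, against 0.46 for AT3G60245). On the deposited values the L37a pair overlapped. The L22 and L30 pairs with the dim AT1G02830 and AT1G36240 are among the 12. The exact two-sided permutation p was 0.1 for the 16 pairs, the smallest that 3 arrays against 3 can give, and 0.175 after Benjamini-Hochberg adjustment over the 28. No pair can therefore pass the threshold by this test, and pairs of 1 protein share genes. The pairs with the smallest shifts were those of L29 (0.01 ± 0.08) and the L36 pair AT5G02450 and AT2G37600 (0.02 ± 0.29).

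**Figure D3:**
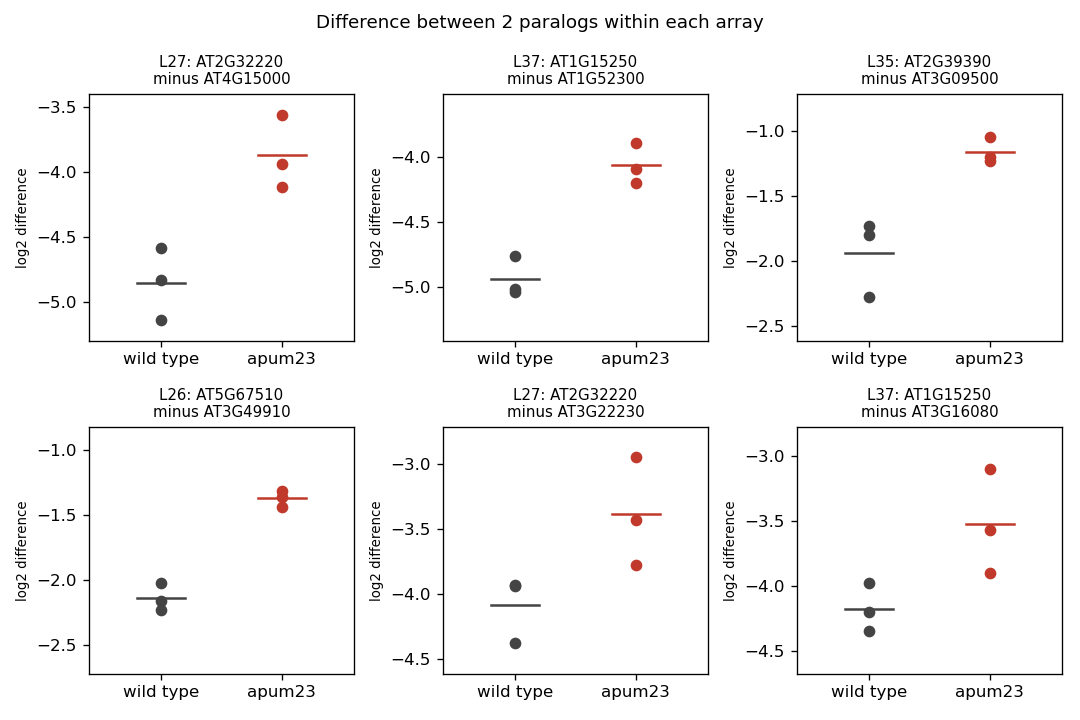
Difference in log2 intensity between 2 paralogs within each array, for the 6 pairs with the largest shift between genotypes (panels). Points are arrays, bars are means of 3, and each panel spans the same range in log2 units around its own centre. The gene with the smaller change is subtracted from the one with the larger, so the upward direction of the shift is set by this order. The groups do not overlap in any of the 6 panels.

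Near-identical paralogs can share probes in spite of a probe set named for 1 gene and the range of the array can compress changes of the brightest probe sets. The part of either in these spans was not tested. The 22 genes in the brightest 5% of probe sets had a median change of 0.63, with 20 called. The 10 genes between that mark and the lower quartile had a median of 0.76, with 8 called. All probe sets in these ranges had medians of -0.02 and -0.03, with 20.4% and 12.1% called higher. The 10 genes include the dim AT1G02830 (0.14) and AT1G36240 (0.12). Within L26, L27, L28, L31, L35, L35a, L36 and L37, the measured paralog with the highest wild-type mean changed least. In L22, L30, L34 and L37a it changed most, though the other measured genes of L30 and L37a were dim.

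Other cytosolic ribosomal protein genes were also called higher, beside 9.69% of all probe sets. Among 36 measured genes for L3 to L19, 26 were called higher and 0 lower, and the median change was 0.49. Among 48 measured small-subunit (40S) genes, 38 were called higher and 0 lower, and the median change was 0.51. On the deposited values 13 of the 36 and 19 of the 48 were called, with medians of 0.59 and 0.56. For L21 to L39 these were 19 of the 34 and 0.74. On that scale 5.31% of all probe sets were called higher. After quantile normalization the largest changes among L3 to L19 were 1.19 for AT3G16780 (L19) and 1.16 for AT5G22440 (L10a). In the small subunit they were 2.08 for AT5G59240 (S8) and 1.75 for AT5G39850 (S9). The difference between the lists was not tested.

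**Figure D4:**
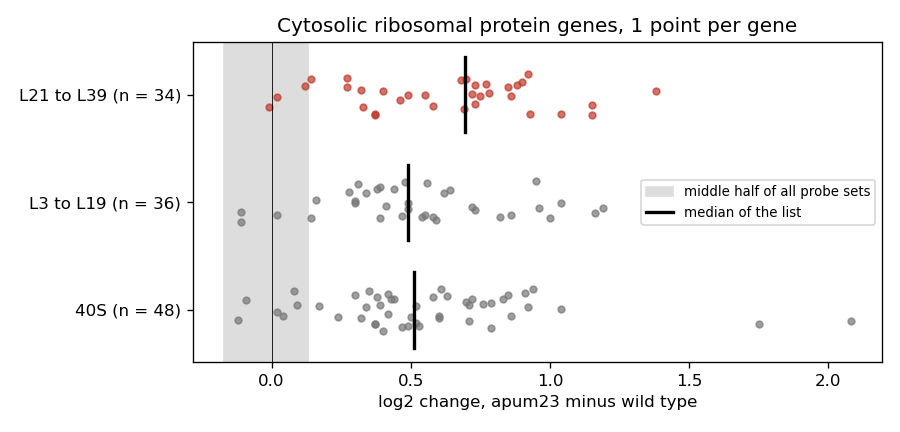
Log2 change of each measured gene for L21 to L39, L3 to L19 and the 40S subunit (1 point per gene, scattered vertically only for display). Black bars are list medians of 0.69, 0.49 and 0.51, and the shaded band spans the quartiles of all probe sets.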

How the data were processed

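The authors deposited 1 log2 intensity per probe set and array. RMA and limma are named per the submitters' processing notes, and their versions are not given in the sources used here. The authors' deposited log2 values do not share 1 distribution, so limma on them estimated infinite prior degrees of freedom and 1 standard error of 0.224 for all probe sets. They were therefore quantile-normalized over the 6 arrays (median standard error 0.11, prior degrees of freedom 7.27), with the deposited values as an alternative. The 64 control probe sets were left out of 22810. The genotypes were set against each other in limma 3.58.1 under R 4.3.3, by eBayes on a linear fit with no block, two-sided, with Benjamini-Hochberg adjustment. Of the tested probe sets, 13513 have 1 gene in the platform annotation, and loci come from the RefSeq table of TAIR10.1. A gene's brightest 1-gene probe set stood for it, and no measured member had several. Paralog differences were compared with exact permutation tests (scipy 1.17.1).

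The members, the other ribosomal protein lists and the tests were chosen with earlier results of these data known. Described in full are the 6 members with the highest and the 6 with the lowest change, the extremes of the 6 proteins with the widest spans, and other members whose calls moved. From each other list the 2 called genes with the largest change are named. The number of arrays limits the precision. The limma p-values set each change against the spread between these samples, moderated with that of all probe sets. They do not cover spread beyond these samples. Data were simulated for 22746 probe sets with independent noise, and 200 with means above 5 were changed. There the comparison recovered 38.8% of changes of 0.5, 86.6% of 1 and 98.5% of 2, with 3 false calls. In the real data 4481 probe sets were called, so these rates do not carry over to them. Alternatives were the deposited scale, median centring, each array left out, apum23 replicate 1 alone, the replicate block, a filter on dim probe sets and another variance model. A planned search of promoters for motifs was not run, as no sequence was used here. Same-numbered arrays had correlations of deviations of -0.207, 0.0289 and 0.000279, so the numbers were not taken to pair the arrays.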

Additional observations from a re-analysis of the deposited data

Results flagged for a closer look

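Probe sets shared between 2 paralogs were outside the comparison of single genes. All 8 that cover listed loci were called higher in apum23 than in the wild-type controls, beside 9.69% of all probe sets. The 8 cover 12 loci of 5 proteins, of which L21, L32, L38 and L39 had no measured gene. The probe set for the L21 genes AT1G57660 and AT1G57860 changed by 0.83, from 9.63, 9.38 and 9.37 to 10.26, 10.16 and 10.45 (limma adjusted p = 0.000466). That for AT1G09590 and AT1G09690, also L21, changed by 0.52. For the L39 genes AT2G25210 and AT4G31985, of a protein inside the exit tunnel, a pair of probe sets changed by 0.56 and 0.59. For the L38 genes AT2G43460 and AT3G59540 a pair changed by 0.67 and 0.31. The L35a probe set for AT1G41880 and AT3G55750 changed by 0.51. The L32 probe set for AT4G18100 and AT5G46430 changed by 0.35 (limma adjusted p = 0.0452). Signal from 2 genes cannot be told apart in these probe sets. Only 2 of the 8, the first of L21 and the first of L38, were called on the deposited values. On that scale 5.31% of all probe sets were called higher.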

How the results depend on the processing

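No called gene changed direction under any of the 12 settings run for single genes, and 0 members were called lower in any. Since the groups of called genes did not overlap, leaving arrays out could not turn a direction. Called members numbered 19 on the deposited values, 20 with median centring, 22 at an adjusted p under 0.01, 30 without the dimmest 40% of probe sets, 30 with a trended robust variance, 18 with apum23 replicate 1 as the lone mutant array, where fewer arrays enter, and 22 to 25 in the fits without 1 array. In every fit without 1 array, 22 of the 28 were called. Over all 12 settings, leaving aside apum23 replicate 1 alone, 19 of the 28 were called each time. The median change of members was 0.57 with median centring, 0.60 with apum23 replicate 1 as the lone mutant array, and 0.66 to 0.73 in the fits without 1 array. Median centring moved the median of all probe sets to -0.09.

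Calls over all probe sets numbered 4481 (2205 higher, 2276 lower). They were 1522 on the deposited values (1208 higher, 314 lower), 2997 with median centring (1196 higher, 1801 lower), and 1697 with apum23 replicate 1 alone (934 higher, 763 lower). With each array left out they ranged from 2957 to 4049, higher calls from 1544 to 2108 and lower calls from 1413 to 1941. The lowest total was without apum23 replicate 3 (2957, 1413 lower), and without wild-type replicate 2 there were 1488 lower. The cause was not tested. Without the dimmest 40% of probe sets 4543 were called (2183 higher, 2360 lower), out of fewer tested. With a trended robust variance 4747 were called (2311 higher, 2436 lower). The 30 members called in each of these settings thus stood beside larger shares of all tested probe sets than in the main fit. With the replicate block 3992 probe sets (2028 higher) and 26 members were called, and 23 members with the replicate block on the deposited values. The block ended the calls of AT1G77940 and AT5G56710 and of no other member. The number of arrays whose closest match in the other genotype bore the same number was 0 of 6.

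Uncalled dim genes turned sign. AT3G10950 was at 0.03 on the deposited values and ran from -0.10 to 0.07 in the fits without 1 array, above 0 when replicate 1 of either genotype was left out. AT1G12960 was at -0.05 with median centring and ran from -0.07 (wild-type replicate 3 left out) to 0.11. Pairs without overlap numbered 14 to 21 when all arrays or all but 1 were used, and 23 with apum23 replicate 1 alone, where fewer values make overlap rarer.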
